A study of Mus musculus with 14 samples.

Results

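The extracellular matrix and integrin genes are the collagens, laminins, matrix proteases and integrins whose CpG sites were measured in mammary adipose tissue of 14 female mice by reduced representation bisulfite sequencing (RRBS). A site was taken as a member when the symbol of its nearest transcript, as given in the deposited table, was a collagen (Col), an Adamts or Adamtsl gene, an Mmp, a laminin chain (Lama, Lamb or Lamc), or began with Itga or Itgb. This rule used names only and found 556 sites of 75 genes among 75761 sites of 12627 gene symbols. RRBS sequences short fragments that the enzyme MspI cuts at CCGG, after bisulfite treatment, and the share of reads in which a cytosine was methylated is its level, given here in percent. Read counts are not part of the table, which leaves the depth unknown, and no interval of a single level could be given.

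All mice were C57BL/6N females (C57BL/6NCrl in the methods) that arrived at 8 weeks of age, and all carried E0771 mammary tumor cells in the opposite mammary fat pad. The 3 CON-LFD mice were fed 10% fat (of energy) from start to end. The other mice were made obese (DIO) with a 60% fat diet for 15 weeks. The 4 DIO-HFD mice were kept on it, while the 3 DIO-LFD mice changed to the 10% fat diet and the 4 DIO-VSG mice changed to it after vertical sleeve gastrectomy (VSG), a removal of most of the stomach. Mice without VSG had sham surgery. Tumor cells were given 7 weeks after surgery and the tumor-free contralateral fat pad was taken 4 weeks later. Replicates are separate mice, their numbers are not stated to pair them, and within a group the values below run from replicate 1 to the last.

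The matrix around fat cells is a mesh of fibrillar collagens, of which type I is the most abundant, and each adipocyte and vessel is wrapped in a basement membrane of laminins, type IV collagen and the proteoglycan perlecan. Integrins are pairs of an alpha and a beta chain in the cell membrane that bind these proteins, and Mmp and Adamts proteases cut or mature them. Methylation of a CpG at a promoter often goes with a silent gene, whereas methylation inside a gene body has no fixed relation to its expression, which was not analysed here. The tissue is a mixture of cells, so a changed level within a cell type and a changed share of cell types cannot be told apart.

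Most members lay away from promoters. Of the 556 sites, 23.4% carried the promoter flag of the table against 25.8% of all sites, 53.6% the intron flag against 41.3%, and 15.3% lay in a CpG island against 23.8%. By the GENCODE vM21 gene models 443 sites lay inside the gene they are assigned to, 178 of them in an exon, and 26 lay in another coding gene, among them 17 of the 22 Mmp23 sites, which are in Mib2. Only 130 sites were within 1000 bp of the transcript start and 13 were more than 100000 bp from it, so an assigned name says which gene is nearest and not which gene is regulated. The fibrillar collagens had 99 sites of 8 genes, the basement membrane and network collagens 80 of 8, and the FACIT, transmembrane and other collagens 60 of 8. The laminins had 56 sites of 9 genes, the Adamts proteases 56 of 13, the Adamtsl proteins 72 of 4 and the Mmp proteases 92 of 12. The integrin alpha chains had 23 sites of 7 genes, and the integrin beta chains and binding proteins 18 of 6, where Itgb1bp2 and Itgbl1 match by name but are not integrin chains.

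The sequences at 9 loci are shown because the results turn on them: Col12a1, where the smallest p-values lay, 4 loci with the highest levels in most DIO-HFD mice (Mmp17, Adamtsl5, Itga3 and Lamb3) and 4 with the lowest (Col1a1, Adamtsl2, Lama5 and Col27a1). They were read from GRCm38 (mm10), the build of the table, as the + strand, and capitals mark the CpGs that were measured. The windows are chr9:79714532-79714595 (Col12a1), chr5:129586601-129586829 (Mmp17), chr10:80341990-80342230 (Adamtsl5), chr11:95082890-95083002 (Itga3), chr1:193330405-193330519 (Lamb3), chr11:94944299-94944401 (Col1a1), chr2:27088402-27088523 (Adamtsl2), chr2:180214906-180215146 (Lama5) and chr4:63221741-63221927 (Col27a1).
Col12a1: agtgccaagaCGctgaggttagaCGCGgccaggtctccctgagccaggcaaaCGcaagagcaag
Mmp17: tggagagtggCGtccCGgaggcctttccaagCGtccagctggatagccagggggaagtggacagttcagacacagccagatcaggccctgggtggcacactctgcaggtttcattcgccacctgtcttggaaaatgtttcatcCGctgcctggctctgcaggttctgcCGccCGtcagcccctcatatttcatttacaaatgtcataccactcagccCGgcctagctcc
Adamtsl5: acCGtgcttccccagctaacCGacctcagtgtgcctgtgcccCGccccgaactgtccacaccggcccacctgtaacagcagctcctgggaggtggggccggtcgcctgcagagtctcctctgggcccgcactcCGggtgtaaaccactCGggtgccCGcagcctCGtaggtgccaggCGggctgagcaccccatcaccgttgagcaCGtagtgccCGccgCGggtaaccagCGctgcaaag
Itga3: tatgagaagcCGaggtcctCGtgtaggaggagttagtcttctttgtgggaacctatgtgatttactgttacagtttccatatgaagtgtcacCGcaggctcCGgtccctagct
Lamb3: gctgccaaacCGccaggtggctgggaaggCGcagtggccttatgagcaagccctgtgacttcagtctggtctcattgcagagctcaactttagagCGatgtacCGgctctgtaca
Col1a1: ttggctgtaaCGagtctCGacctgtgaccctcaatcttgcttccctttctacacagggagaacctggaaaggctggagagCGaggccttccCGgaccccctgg
Adamtsl2: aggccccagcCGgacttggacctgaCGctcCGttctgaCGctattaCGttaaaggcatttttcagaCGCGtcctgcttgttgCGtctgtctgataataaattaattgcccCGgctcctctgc
Lama5: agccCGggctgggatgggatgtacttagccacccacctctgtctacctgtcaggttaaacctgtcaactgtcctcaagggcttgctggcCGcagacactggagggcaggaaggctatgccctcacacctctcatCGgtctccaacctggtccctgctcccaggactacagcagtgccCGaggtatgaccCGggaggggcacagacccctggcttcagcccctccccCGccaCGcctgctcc
Col27a1: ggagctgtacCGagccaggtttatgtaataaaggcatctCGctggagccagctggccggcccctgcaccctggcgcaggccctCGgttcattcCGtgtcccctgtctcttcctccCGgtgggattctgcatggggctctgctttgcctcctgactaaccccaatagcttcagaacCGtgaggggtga

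The Mmp17 window joins 2 neighbouring runs and holds 7 measured CpGs, that of Adamtsl5 the larger part of an island run with 12, and the Col12a1, Itga3 and Col1a1 windows hold 4 each. None of the windows is a promoter, and none lies in an untranslated region of the gene models.

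In the comparisons a level b, as a fraction, was turned into M = log2((b + 0.01)/(1 − b + 0.01)), and a difference in M (first group minus second) was tested with limma in 1 model of the 4 groups. The model was fitted over the 65610 sites of the whole table with a standard deviation (SD) of the level of at least 0.05, a set that holds 475 member sites of 71 genes, and p-values were adjusted over all of them by the Benjamini-Hochberg method. The other 81 member sites, among them all sites of Col5a1, Itga11, Itga6 and Itgb3, varied too little to be tested. Each comparison with DIO-HFD uses the same 4 DIO-HFD mice, so the 3 are not independent of each other.

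Before these results, 1 mouse has to be named. The mean level over the 475 tested member sites was 62.5%, 52.5%, 53.7% and 53.1% in the DIO-HFD mice, 60.1%, 60.3% and 56.1% in the CON-LFD mice, 62.1%, 57.4% and 59.0% in the DIO-LFD mice, and 60.5%, 60.5%, 60.8% and 61.4% in the DIO-VSG mice. DIO-HFD replicate 1 was thus above every other mouse, while the other DIO-HFD mice were below every mouse of the other groups. DIO-HFD replicate 1 was outside the range of the other 3 DIO-HFD mice at 395 of the 475 sites (83.2%). At 373 of the 475 (78.5%) it was outside that range on the side of the DIO-VSG mean. Over all tested sites of the table the order was the same. DIO-HFD replicate 1 had the highest mean of all mice, 66.2%, and the other DIO-HFD mice the lowest, 57.2%, 57.6% and 57.6%. The labels put it in DIO-HFD, and it was kept there. Leaving out each mouse in turn was planned, but since this mouse stood apart on the measured level itself, p-values without it are given as a measure of its weight and not as independent support.

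With all mice, no member site passed an adjusted p of 0.05 in any of the 4 comparisons. Against DIO-HFD the smallest adjusted p (limma) was 0.611 in the CON-LFD comparison, 0.437 in that of DIO-LFD and 0.150 in that of DIO-VSG, and between DIO-VSG and DIO-LFD it was 0.211. Over all tested sites the share that passed was 0.00%, 0.00305%, 0.00305% and 0.00305% in the same order. Levels were nonetheless shifted to one side. In CON-LFD against DIO-HFD 26 member sites were higher and 10 lower at an unadjusted p under 0.05, which is 5.47% and 2.11% of the members beside 6.00% and 1.76% of all sites. In DIO-LFD against DIO-HFD 39 were higher and 7 lower, 8.21% and 1.47% beside 7.92% and 2.16%. In both comparisons the members' shares were near those of all sites.

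In DIO-VSG against DIO-HFD 116 member sites of 31 genes were higher and 32 sites of 8 genes lower at an unadjusted p under 0.05. These are 24.4% and 6.74% of the members, beside 20.2% and 4.85% of all sites. Between the interventions, DIO-VSG against DIO-LFD, 8 were higher and 8 lower, 1.68% each beside 2.42% and 1.55%. The groups did not overlap, in either direction, at 13 member sites in CON-LFD against DIO-HFD (2.74%, all sites 4.68%) and at 17 in DIO-LFD against DIO-HFD (3.58%, all sites 4.80%). They did not overlap at 38 in DIO-VSG against DIO-HFD (8%, all sites 7.58%), 30 higher and 8 lower, and at 30 in DIO-VSG against DIO-LFD (6.32%, all sites 7.74%).

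The upward shift was one of the whole table. The median difference in M over the members was 0.31 in CON-LFD, 0.35 in DIO-LFD and 0.53 in DIO-VSG against DIO-HFD, and over all sites 0.29, 0.30 and 0.48. When each mouse was centred on its own median, 51 members were higher and 65 lower in DIO-VSG against DIO-HFD at an unadjusted p under 0.05, 10.7% and 13.7% beside 8.64% and 11.4% of all sites. For CON-LFD these were 20 and 18 (4.21% and 3.79% beside 4.15% and 3.40%), for DIO-LFD 27 and 13 (5.68% and 2.74% beside 5.53% and 4.43%), and for DIO-VSG against DIO-LFD 7 and 16 (1.47% and 3.37% beside 1.75% and 2.90%). The direction for any single gene group below is therefore given on both scales. In DIO-VSG against DIO-HFD the shares of all sites to set beside its counts are 20.2% higher and 4.85% lower, and 8.64% and 11.4% after centring. Without DIO-HFD replicate 1 they are 28.8% and 5.62% at an adjusted p under 0.05.

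Without DIO-HFD replicate 1, member sites passed the adjusted p in every comparison with DIO-HFD. In CON-LFD 70 sites did (14.7%, all sites 12.0%), of which 48 were higher (10.1%, all sites 9.67%) and 22 lower (4.63%, all sites 2.30%). In DIO-LFD 78 did (16.4%, all sites 14.6%), of which 64 were higher (13.5%, all sites 12.1%) and 14 lower (2.95%, all sites 2.42%). In DIO-VSG 216 did (45.5%, all sites 34.4%), made up of 169 higher sites of 32 genes (35.6%, all sites 28.8%) and 47 lower sites of 8 genes (9.89%, all sites 5.62%). The smallest adjusted p (limma) was then 0.0114, 0.00752 and 0.00102. At 113 sites of 25 genes (23.8%, all sites 18.6%) DIO-HFD replicates 2 to 4 lay below all 10 mice of the other groups, and at 32 sites of 5 genes (6.74%, all sites 3.66%) above them, which is a description, since the mouse left out was chosen with its levels known.

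**Figure D1:**
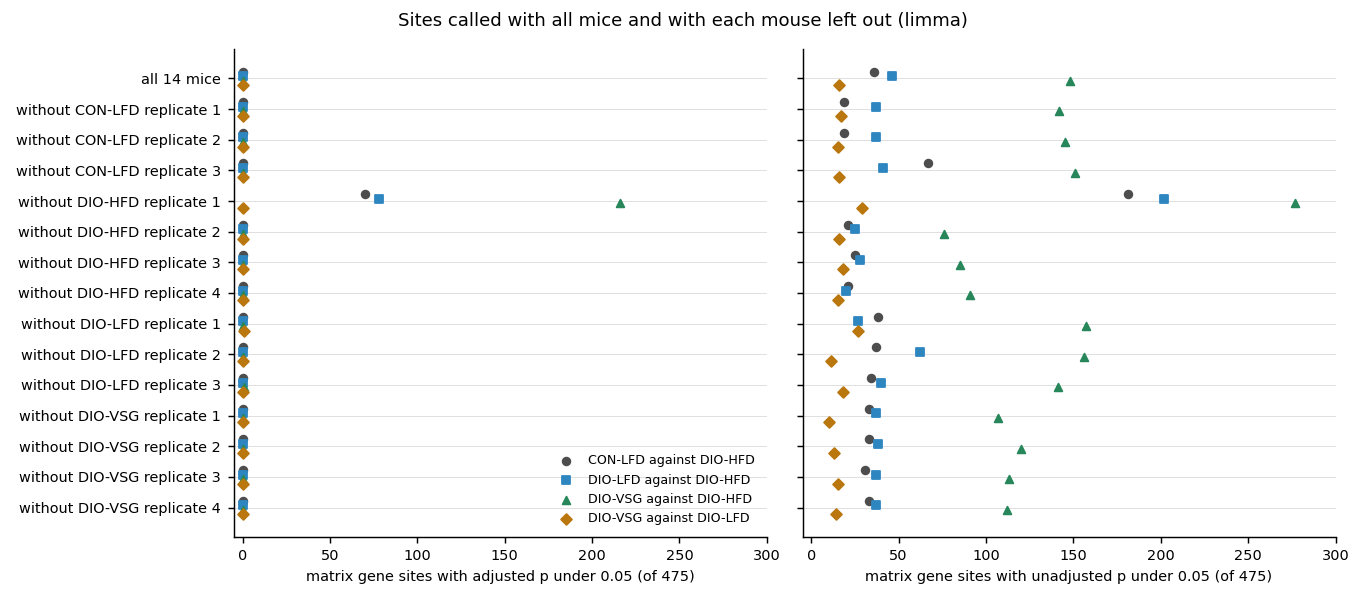
Number of member sites (horizontal axis, of 475 tested) with an adjusted (left) or unadjusted (right) limma p under 0.05 in the 4 comparisons, with all 14 mice and with each mouse left out (vertical axis). The adjusted counts are 0 with all mice, and 70, 78 and 216 in the comparisons with DIO-HFD once DIO-HFD replicate 1 is left out.

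Levels were also averaged over neighbouring sites. With sites no more than 100 bp apart joined, 251 tested sites of 30 genes formed 54 runs of at least 3 sites. In 24 runs (124 sites of 16 genes) the run means of DIO-HFD replicates 2 to 4 were all below those of the 10 mice of the other groups, in 7 runs (43 sites of 4 genes) above them, and in 23 runs neither. These are 44.4% and 13% of the runs, beside 31.3% and 6.14% of the 6544 runs that all tested sites form in the same way, and the difference was not tested. The 7 runs were in Adamtsl5 (3 runs), Mmp17 (2 runs), Itga3 and Lamb3. The runs that follow were singled out after their values were seen, apart from the genes that the naming rule gives.

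**Figure D2:**
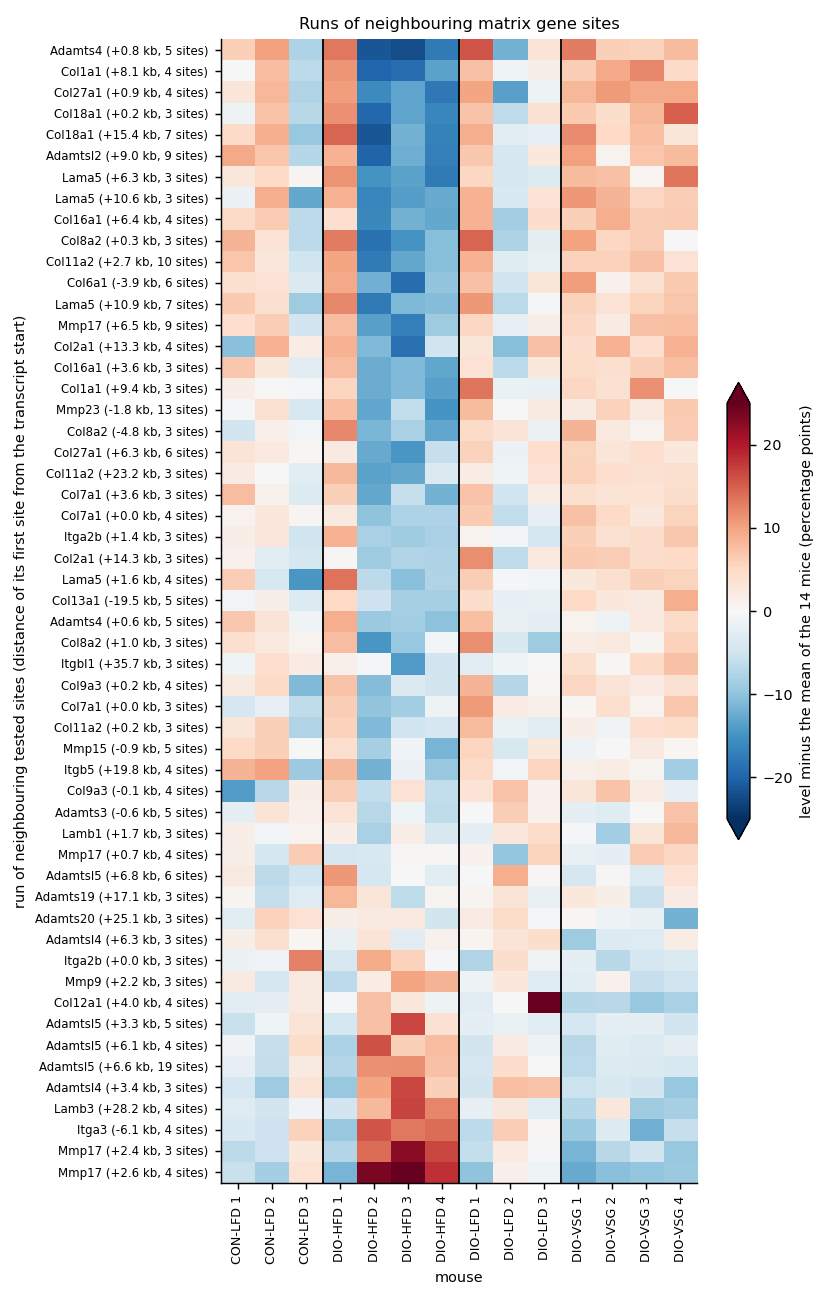
Mean level of each of the 54 runs (rows, named by gene and by the distance of the first site from the transcript start) in each of the 14 mice (columns), as percentage points above (red) or below (blue) the mean of the run over all mice. DIO-HFD replicates 2 to 4 are blue in the upper rows and red in the lowest, where Mmp17, Itga3, Lamb3 and Adamtsl5 lie, and DIO-HFD replicate 1 has the opposite sign in most rows.

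Fibrillar collagens, which form the fibers that give tissue its tensile strength, were lower in 3 of the 4 DIO-HFD mice. Their mean over 89 tested sites was 72.1%, 58.8%, 57.7% and 59.7% in DIO-HFD mice. The other groups had 67.9% ± 3.31 (SD, n = 3) in CON-LFD, 68.1% ± 4.08 (n = 3) in DIO-LFD and 70.6% ± 0.114 (n = 4) in DIO-VSG mice. In DIO-VSG against DIO-HFD 26 of the 89 sites were higher at an unadjusted p under 0.05 and 0 lower, with a median difference in M of 0.66, and after centring 13 were higher and 6 lower with a median of 0.18. None passed the adjusted p with all mice. Without DIO-HFD replicate 1, 36 were higher and 3 lower at an adjusted p under 0.05, the 3 lower ones in Col11a2.

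Col1a1 encodes the alpha chain that makes up most of type I collagen. Its run about 8.1 kb into the gene (4 sites, 2 in an exon) had levels of 53.7%, 61.5% and 47.2% in CON-LFD mice, 64.9%, 34.1%, 34.8% and 40.4% in DIO-HFD mice, 61.2%, 52.8% and 55.2% in DIO-LFD mice, and 59.9%, 63.2%, 65.9% and 58.6% in DIO-VSG mice. DIO-HFD replicates 2 to 4 were the lowest mice and DIO-HFD replicate 1 was the second highest, so the groups overlapped. At the exonic site chr11:94944379, the Col1a1 site with the smallest p, DIO-VSG was above DIO-HFD by 1.48 in M (SE 0.47, limma adjusted p = 0.150, and 0.00206 without DIO-HFD replicate 1). Over its 14 tested sites, 5 were higher in DIO-VSG at an unadjusted p under 0.05 and 0 lower, and after centring 1 and 1. The sites of Col3a1, the second major collagen of fat, lay more than 100000 bp from its start and had unadjusted p-values of at least 0.132 in all comparisons.

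Col27a1 and Col11a2 encode fibrillar collagens best known from cartilage. The Col27a1 run about 6.3 kb from its start (6 intronic sites) had 86.6%, 85.7% and 83.8% in CON-LFD mice, 85.3%, 70.7%, 68.7% and 77.3% in DIO-HFD mice, 88.9%, 81.8% and 87.4% in DIO-LFD mice, and 88.8%, 86.2%, 87.4% and 85.9% in DIO-VSG mice. Here again 3 DIO-HFD mice lay below all others. In this run chr4:63221780 had the smallest p of the DIO-LFD comparison, with 89.1%, 88.7%, 80% and 87.4% in DIO-HFD against 97.7%, 100% and 95.3% in DIO-LFD mice. The groups did not overlap at this site, the difference in M was 2.60 (SE 0.54, limma adjusted p = 0.437), and it was 0.0160 without DIO-HFD replicate 1.

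Col11a2 had the most sites of the fibrillar collagens, with 38. Its run of 10 sites about 2.7 kb into the gene, 9 of them in exons, had 76.0%, 71.9% and 64.0% in CON-LFD mice, 78.9%, 51.3%, 56.2% and 58.3% in DIO-HFD mice, 77.6%, 66% and 67.1% in DIO-LFD mice, and 74.8%, 74.8%, 76.3% and 72.6% in DIO-VSG mice. The site in it with the smallest p, the exonic chr17:34042258, had a difference in M of 1.31 (SE 0.38, limma adjusted p = 0.150, and 0.00237 without DIO-HFD replicate 1) in DIO-VSG against DIO-HFD. Col11a2 was not uniform, since 3 other sites were the ones that were lower in DIO-VSG without DIO-HFD replicate 1. At one of them, the intronic chr17:34057177, DIO-HFD mice had 42.3%, 58.8%, 61.6% and 52.5% and DIO-VSG mice 41.3%, 41.9%, 44.6% and 39.2%. The Col11a1 site chr3:114278449, 247911 bp from the transcript start and outside the gene, had the smallest p of the CON-LFD comparison (100%, 100% and 93.3% against 93.9%, 82.8%, 89.7% and 82.1% in DIO-HFD). Its difference in M was 2.87 (SE 0.77, limma adjusted p = 0.611).

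**Figure D3:**
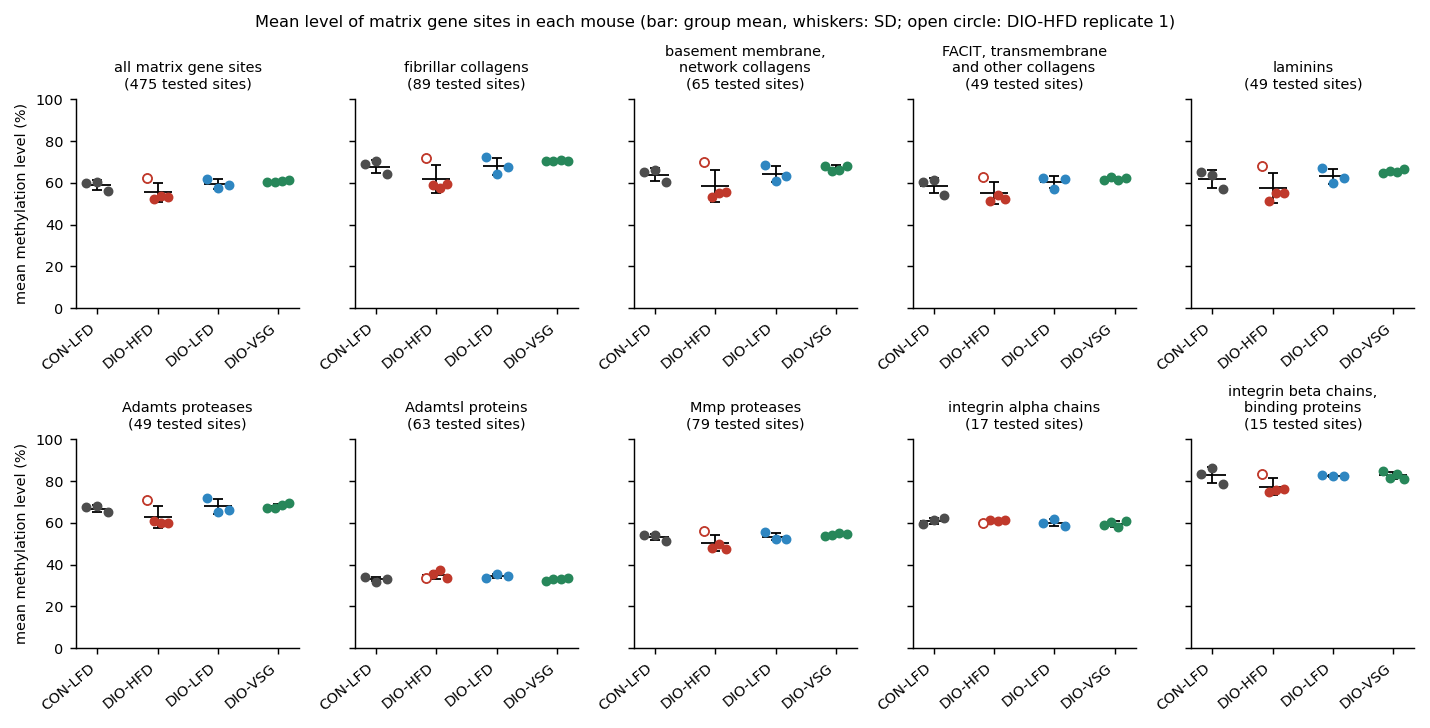
Mean level (vertical axis, %) over the tested sites of each gene group in each mouse (points), with the group mean as a bar and the SD as whiskers, and DIO-HFD replicate 1 as an open circle. In the collagens, laminins and proteases this mouse lies among or above the other groups and the other DIO-HFD mice below them, whereas the Adamtsl proteins and integrin alpha chains show no such order.

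Basement membrane and network collagens showed the same order. Their 65 tested sites had 69.9%, 53.3%, 55.0% and 55.6% in DIO-HFD mice, beside 63.9% ± 3.14 in CON-LFD (n = 3), 64.3% ± 3.94 in DIO-LFD (n = 3) and 67.2% ± 1.34 in DIO-VSG mice (n = 4). In DIO-VSG against DIO-HFD 19 were higher at an unadjusted p under 0.05 and 0 lower (centred, 5 and 2), and without DIO-HFD replicate 1 the adjusted count was 30 higher and 0 lower. Col6a1, a chain of the type VI collagen that surrounds adipocytes, had 8 of 14 tested sites higher and 0 lower, and after centring 0 and 0. In the 6 sites about 3.9 kb upstream of Col6a1 the levels were 78.6%, 78.3% and 70.9% in CON-LFD mice, 84.0%, 62.6%, 55.8% and 64.7% in DIO-HFD mice, 81.9%, 69.5% and 77.5% in DIO-LFD mice, and 85.0%, 75.7%, 78.4% and 81.2% in DIO-VSG mice.

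Col18a1, a basement membrane collagen whose end fragment is endostatin, had a run of 3 sites with the promoter flag at 249 bp from a transcript start. These had 61.6%, 70.0% and 56% in CON-LFD mice, 74.3%, 43.1%, 49.7% and 46.6% in DIO-HFD mice, 69.9%, 56.5% and 66.6% in DIO-LFD mice, and 69.3%, 67.2%, 71.2% and 77.7% in DIO-VSG mice. At the site 249 bp from the start DIO-VSG was above DIO-HFD by 1.39 in M (SE 0.40, limma adjusted p = 0.150, and 0.00301 without DIO-HFD replicate 1). Col7a1, the collagen of anchoring fibrils, also had runs at its start. Its site 27 bp from the start, in the first exon, had 12.3%, 17.6% and 10.6% in CON-LFD mice, 13.1%, 4.10%, 2.22% and 5% in DIO-HFD mice, 18.9%, 13.2% and 14.4% in DIO-LFD mice, and 18.3%, 20.9%, 14.5% and 14.8% in DIO-VSG mice. This promoter site was sparsely methylated in every mouse and least in DIO-HFD replicates 2 to 4. The difference in M was 1.73 (SE 0.43) in DIO-VSG and 1.57 (SE 0.46) in DIO-LFD against DIO-HFD, with limma adjusted p-values of 0.150 and 0.494, and 0.00134 and 0.00851 without DIO-HFD replicate 1. In the Col7a1 run of 3 promoter sites at chr9:108953754-108953777, DIO-HFD replicates 2 to 4 were not all below the other groups. There CON-LFD mice had 27.2%, 29.3% and 25.1%, and DIO-HFD mice 37.6%, 21.6%, 22.8% and 30.1%.

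Among FACIT, transmembrane and other collagens, which decorate fibrils or span the cell membrane, 19 of 49 tested sites were higher and 4 lower in DIO-VSG than DIO-HFD at an unadjusted p under 0.05 (centred, 6 and 4). Col16a1, a FACIT, held 10 of the 19, and after centring 2 of its 14 tested sites were higher and 0 lower. In its run about 6.4 kb into the gene (4 sites) CON-LFD mice had 77.1%, 78.7% and 65.8%, DIO-HFD mice 76.7%, 56.2%, 60.7% and 59.6%, DIO-LFD mice 81.1%, 63.7% and 76.9%, and DIO-VSG mice 78.4%, 81.4%, 78.5% and 78.6%. Every DIO-VSG mouse was above every DIO-HFD mouse there. Col13a1, a transmembrane collagen with 22 sites, had 6 of 14 tested sites higher and 0 lower (centred, 3 and 0). The Col22a1 site chr15:72094866, 60640 bp upstream of the gene, had 100%, 100% and 93.8% in CON-LFD and 86.7%, 71.4%, 92.0% and 71.4% in DIO-HFD mice, a difference in M of 3.53 (SE 0.94, limma adjusted p = 0.611).

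The 4 lower sites were all in Col12a1, a FACIT collagen that binds along type I fibrils. They form a run of 44 bases about 4.0 kb from the transcript start, with the intron flag of the table but in an exon of another transcript in the gene models. Its mean was 6.65%, 7.19% and 11.6% in CON-LFD mice, 8.82%, 16.7%, 12.1% and 8.16% in DIO-HFD mice, 6.48%, 9.46% and 38.2% in DIO-LFD mice, and 2.17%, 2.5%, 0.00% and 1.32% in DIO-VSG mice. All DIO-VSG mice were thus below all 10 others, and DIO-HFD replicate 1 lay within its own group. This order differs from that of the other loci described here, and 1 DIO-LFD mouse was far above the rest.

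At the site chr9:79714555 in this run all 4 DIO-VSG mice were at 0%, DIO-HFD mice were at 7.22%, 9.33%, 11.8% and 6.63%, CON-LFD mice at 4.44%, 7.49% and 11.6%, and DIO-LFD mice at 3.33%, 9.72% and 35.3%. It had the smallest p of all members in 2 comparisons. DIO-VSG was lower than DIO-HFD by a difference in M of -3.38 (SE 0.59, limma adjusted p = 0.150), and than DIO-LFD by -3.84 (SE 0.64, limma adjusted p = 0.211). The adjusted p against DIO-HFD was 0.00342 without DIO-HFD replicate 1, 0.0152 without DIO-LFD replicate 3, and 0.00357 in a fit of only the 2 groups. Against DIO-LFD the limma adjusted p was 0.0238 without DIO-LFD replicate 1, a fit that leaves 2 DIO-LFD mice, and 0.337 without DIO-HFD replicate 1. Over the alternatives run it reached 0.963. The size of these differences rests on the offset in M, since the level is 0% in a whole group. With an offset of 0.1 the unadjusted p against DIO-HFD was 0.0124, and with the level itself in place of M 0.120.

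Laminins, the cross-shaped trimers of the basement membrane, had 12 of 49 tested sites higher and 2 lower in DIO-VSG than DIO-HFD at an unadjusted p under 0.05 (centred, 8 and 5). Before centring these shares were near the 20.2% and 4.85% of all sites. All 12 higher sites were in Lama5, the alpha chain of many adult basement membranes, which has 33 sites (centred, 8 higher and 0 lower). Its run of 7 intronic sites about 10.9 kb into the gene had 75.1%, 72.6% and 59.6% in CON-LFD mice, 80.5%, 50.8%, 57.3% and 57.7% in DIO-HFD mice, 79.3%, 61.8% and 68.1% in DIO-LFD mice, and 74.3%, 72.2%, 74.1% and 75.4% in DIO-VSG mice. CON-LFD replicate 3 and DIO-LFD replicate 2 came nearest to the 3 low DIO-HFD mice. The Lama5 site with the smallest p, chr2:180227394, lay 1536 bp upstream of the start, with 37.5%, 21.1% and 20.4% in CON-LFD, 26.9%, 4.08%, 6.12% and 6.06% in DIO-HFD, 25.5%, 18.2% and 27.5% in DIO-LFD, and 25.9%, 30.8%, 31.2% and 35.3% in DIO-VSG mice. DIO-HFD replicate 1 alone of its group overlapped the others. The difference in M of DIO-VSG against DIO-HFD was 2.14 (SE 0.53, limma adjusted p = 0.150, and 0.00102 without that mouse).

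Lamb3 encodes the beta chain of the laminin that anchors epithelia, and it went the other way. Its 4 intronic sites about 28.2 kb into the gene had 33.6%, 32.3% and 35.9% in CON-LFD mice, 32.1%, 44.9%, 53.7% and 49.1% in DIO-HFD mice, 34.9%, 39.7% and 34.2% in DIO-LFD mice, and 29.7%, 39.7%, 27.9% and 28.5% in DIO-VSG mice. DIO-HFD replicates 2 to 4 were the 3 highest mice, and 2 of the 4 sites had an unadjusted p under 0.05 for lower levels in DIO-VSG. The single tested sites of Lama1, Lama3, Lama4, Lamb2 and Lamc1 had no unadjusted p under 0.05 in DIO-VSG against DIO-HFD.

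Among Adamts proteases, secreted enzymes that mature procollagens and cut proteoglycans, 8 of 49 tested sites were higher and 3 lower in DIO-VSG than DIO-HFD at an unadjusted p under 0.05 (centred, 6 and 5). Before centring the share of higher sites was below the 20.2% of all sites, and that of lower sites near their 4.85%. In Adamts4, an aggrecanase, a run of 5 sites with promoter and exon flags about 0.6 kb from a transcript start had 87.6%, 83.9% and 79.9% in CON-LFD mice, 89.7%, 71.4%, 72.3% and 70.5% in DIO-HFD mice, 88.3%, 78.9% and 78.3% in DIO-LFD mice, and 81.6%, 79.4%, 83.2% and 85.5% in DIO-VSG mice. The lowest mice were DIO-HFD replicates 2 to 4 and the highest was DIO-HFD replicate 1. None of these 5 sites had an unadjusted p under 0.05 in DIO-VSG against DIO-HFD, and 2 passed the adjusted p (limma) without DIO-HFD replicate 1. Adamts7 had 1 site higher and 2 lower at an unadjusted p under 0.05 (centred, 0 and 2), the lower ones in the exon at its end.

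Adamtsl proteins resemble these enzymes but lack the protease domain, and in this group lower sites outnumbered higher ones in DIO-VSG against DIO-HFD, with 9 higher and 12 lower of 63 tested (centred, 5 and 24). The median difference in M was -0.45, and -0.93 after centring. Adamtsl2, a protein of the microfibril surround, held 7 of the 9 higher sites (5 of its sites after centring). Its run of 9 intronic sites about 9.0 kb into the gene had 49.1%, 46.6% and 32.4% in CON-LFD mice, 48.4%, 19.7%, 27.3% and 22.6% in DIO-HFD mice, 46.4%, 35.4% and 42.2% in DIO-LFD mice, and 49.9%, 40.5%, 46.5% and 47.6% in DIO-VSG mice. These mice had the same order as in the collagen runs, with DIO-HFD replicates 2 to 4 lowest.

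Adamtsl5 has 41 sites, the most of any member, and held 10 of the 12 lower sites (20 of its sites after centring). Its island run of 19 sites, 15 of them with the exon flag, had 14.8%, 10.7% and 18.9% in CON-LFD mice, 9.47%, 28.2%, 28.4% and 24.1% in DIO-HFD mice, 12.6%, 21.1% and 16.9% in DIO-LFD mice, and 9.93%, 13.3%, 13.1% and 12.8% in DIO-VSG mice. DIO-HFD replicates 2 to 4 were the highest of all mice and DIO-HFD replicate 1 the lowest. The Adamtsl5 site with the smallest p in this comparison, chr10:80341820, had a difference in M of -1.38 (SE 0.36, limma adjusted p = 0.150). The upstream site chr10:80348705, 294 bp before the start and flagged as promoter, had 66.7%, 48.3%, 50.0% and 52.9% in DIO-HFD and 22.4%, 40.0% and 30.2% in DIO-LFD mice. There DIO-HFD replicate 1 was the highest mouse, and the difference in M was -1.43 (SE 0.41, limma adjusted p = 0.494). Without DIO-HFD replicate 1, 24 Adamtsl5 sites were lower and 1 higher in DIO-VSG at an adjusted p under 0.05.

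**Figure D4:**
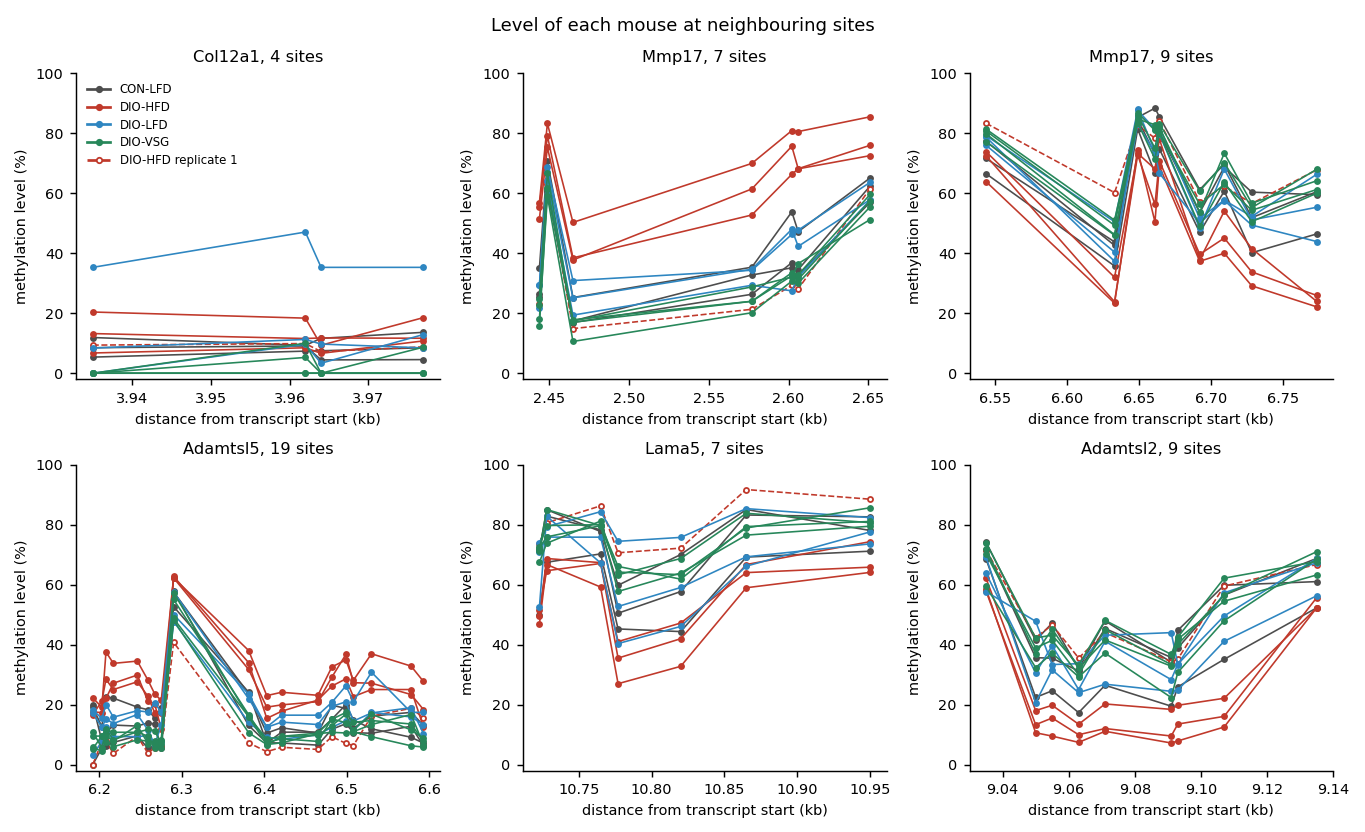
Level (vertical axis, %) of each mouse at each tested site along 6 stretches, by distance from the transcript start (horizontal axis, kb), with lines joining the sites of 1 mouse and DIO-HFD replicate 1 dashed. The solid DIO-HFD lines lie above the rest in Adamtsl5 and in the stretch of 7 Mmp17 sites, and below most lines in Lama5, Adamtsl2 and the stretch of 9 Mmp17 sites, while in Col12a1 the DIO-VSG lines lie lowest.

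Mmp proteases, which cut collagens and other matrix proteins, had 19 of 79 tested sites higher and 7 lower in DIO-VSG than DIO-HFD at an unadjusted p under 0.05, and after centring 8 and 13. Their median difference in M was 0.46 and turned to -0.02 after centring. Before centring the share of higher sites was near that of all sites (20.2%) and the share of lower sites above it (4.85%). All 7 lower sites were in Mmp17, a membrane-anchored Mmp with 26 sites, in an intronic stretch that begins 2444 bp after the start. The 4 sites farther in had 41.2%, 38.2% and 50.4% in CON-LFD mice, 35.1%, 70.3%, 79.2% and 64.9% in DIO-HFD mice, 36.6%, 48.0% and 45.7% in DIO-LFD mice, and 34.1%, 36.3%, 37.2% and 37.5% in DIO-VSG mice. The 3 high DIO-HFD mice exceeded every other mouse, while DIO-HFD replicate 1 was among the lowest. At chr5:129586611, the first site of the stretch, DIO-HFD mice had 23.1%, 51.5%, 56.9% and 55.5% and DIO-VSG mice 18.2%, 22.7%, 24.9% and 15.9%, a difference in M of -1.70 (SE 0.43, limma adjusted p = 0.150, and 0.00102 without DIO-HFD replicate 1).

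Within the same gene, 9 intronic sites about 6.5 kb from the start went the opposite way. They had 66.7%, 68.6% and 57.7% in CON-LFD mice, 70.3%, 49.0%, 45.5% and 53.6% in DIO-HFD mice, 67.6%, 60.6% and 63.9% in DIO-LFD mice, and 67.7%, 64.6%, 69.8% and 70.0% in DIO-VSG mice. Another stretch, the 4 island sites about 0.7 kb from the start, had 46.3% to 50.7% in DIO-HFD and 48.1% to 56.7% in DIO-VSG mice, ranges that overlap. As a result the mean over the 25 tested Mmp17 sites differed little, at 54.5% ± 0.691 in DIO-HFD and 54.0% ± 1.86 in DIO-VSG mice (SD, n = 4 each).

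Mmp14, the membrane-type Mmp that cuts type I collagen and activates Mmp2, had 5 of 8 tested sites higher and 0 lower in DIO-VSG than DIO-HFD (centred, 3 and 1). Its intronic site chr14:54434200 had 50.2%, 51.4% and 31.1% in CON-LFD mice, 51.2%, 26.7%, 27.7% and 29.1% in DIO-HFD mice, 53.6%, 37.5% and 46.6% in DIO-LFD mice, and 57.1%, 57.1%, 56.1% and 62.4% in DIO-VSG mice. All DIO-VSG mice were above all DIO-HFD mice, with a difference in M of 1.46 (SE 0.40, limma adjusted p = 0.150, and 0.00278 without DIO-HFD replicate 1). Mmp23 had 6 higher and 0 lower of 20 tested sites (centred, 1 and 1), but the 13 sites of its longest run lie in Mib2. The tested sites of Mmp9, a gelatinase of leukocytes, and of Mmp11 had no unadjusted p under 0.05 in DIO-VSG against DIO-HFD.

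Integrin alpha chains had few sites, with 1 of 17 tested sites higher and 4 lower in DIO-VSG than DIO-HFD (centred, 0 and 6). All 4 lower sites formed a run about 6.1 kb upstream of Itga3, the alpha chain of a laminin receptor. It had 61.7%, 60.3% and 71.1% in CON-LFD mice, 55.9%, 81.2%, 78.6% and 79.4% in DIO-HFD mice, 59.0%, 71.6% and 65.8% in DIO-LFD mice, and 56.1%, 61.9%, 53.5% and 59.7% in DIO-VSG mice. DIO-HFD replicates 2 to 4 were the highest mice and DIO-HFD replicate 1 among the lowest. Without DIO-HFD replicate 1 all 4 passed the adjusted p, at Itga3 sites outside the gene and its promoter. The higher site was in Itga2b, the alpha chain of the platelet fibrinogen receptor, with 90.8%, 75.5%, 72.9% and 69.9% in DIO-HFD and 92.1%, 88.8%, 85.5% and 89.8% in DIO-VSG mice. That difference in M was 1.11 (SE 0.45, limma adjusted p = 0.169), and the groups overlapped.

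Integrin beta chains and binding proteins had 3 of 15 tested sites higher, near the 20.2% of all sites, and 0 lower in DIO-VSG than DIO-HFD (centred, 0 and 0). One was the intronic site of Itgb2, the beta chain of leukocyte integrins, with 56.9%, 43.7%, 56.9% and 42.2% in DIO-HFD and 71.7%, 66.4%, 63.9% and 66.7% in DIO-VSG mice. The groups did not overlap there (limma adjusted p = 0.153). The other 2 were in Itgbl1, which also had the second smallest p between the interventions, at chr14:123695714 with 75.2%, 81.8% and 86.0% in DIO-LFD and 91.7%, 89.1%, 97.2% and 100% in DIO-VSG mice. That difference in M was 2.33 (SE 0.72, limma adjusted p = 0.945).

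Of the remaining sites that the naming rule gives, none passed the adjusted p with all mice. In CON-LFD against DIO-HFD the single Lama3 site was at 100%, 93.5% and 100% against 80%, 70.0%, 82.5% and 89.3%, a difference in M of 3.59 (SE 1.12, limma adjusted p = 0.611). The size of this difference rests in part on the offset in M, since some levels are 100%. The same holds at the Col11a1, Col22a1, Col27a1 and Itgbl1 sites given above, where levels of 100% also occur. In DIO-VSG against DIO-HFD the site chr9:7612699, 15532 bp upstream of Mmp20, an enzyme of tooth enamel, was at 95.7%, 90.1%, 90.2% and 95.5% against 88.1%, 71.1%, 78.9% and 77.8%. The DIO-VSG mice were above the DIO-HFD mice there, with a difference in M of 1.70 (SE 0.41, limma adjusted p = 0.150). Between the interventions, DIO-VSG against DIO-LFD, the difference in M was 2.13 (SE 0.70) at a site upstream of Mmp1b, 1.31 (SE 0.44) at an intronic site of Col16a1 and 1.89 (SE 0.67) at an intronic site of Adamts12, each with a limma adjusted p of 0.945. The intronic Adamts14 site chr10:61248845 had 85.2%, 68.4%, 74.0% and 64.9% in DIO-HFD and 87.3%, 83.8%, 84.1% and 88.7% in DIO-VSG mice, a difference in M of 1.08 (SE 0.39, limma adjusted p = 0.155). Col13a1 had 84.3%, 74.4%, 68.7% and 64.5% in DIO-HFD and 88.3%, 83%, 83.4% and 92.6% in DIO-VSG mice at chr10:61998669, 19562 bp upstream of its start, a difference in M of 1.24 (SE 0.39, limma adjusted p = 0.150). In both of these the groups overlapped through DIO-HFD replicate 1.

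For CON-LFD against DIO-HFD the rule gives 4 further sites. At chr4:155655561, assigned to Mmp23 but in Mib2, CON-LFD mice had 85.7%, 84.9% and 74.5% and DIO-HFD mice 75%, 62.7%, 70.8% and 58.0%. At the promoter site of Mmp15, a membrane-type Mmp, 912 bp upstream of the start, they had 57.8%, 58.6% and 56.7% against 54.9%, 41.8%, 46.8% and 27.8%, without overlap. The differences in M were 1.15 (SE 0.36) and 0.87 (SE 0.35), and 1.18 (SE 0.37) at the intronic Col16a1 site chr4:130061874 and 1.02 (SE 0.38) at the intronic Col6a1 site chr10:76714826, each with a limma adjusted p of 0.611.

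For DIO-LFD against DIO-HFD the rule gives 3 further sites. The intronic Col11a2 site chr17:34061682 had 92.5%, 98.6% and 94.2% in DIO-LFD and 92.6%, 81.6%, 80% and 85.3% in DIO-HFD mice. At chr4:155655354, assigned to Mmp23 but in Mib2, DIO-LFD mice had 48.4%, 40% and 34.0% and DIO-HFD mice 31.1%, 20%, 27.8% and 18.1%, without overlap. The site 7831 bp upstream of Adamts2, a protease that matures procollagens, had 88.5%, 87.4% and 92.3% against 88.5%, 80.5%, 77.3% and 77.2%. Differences in M were 1.72 (SE 0.51), 1.1 (SE 0.34) and 0.92 (SE 0.39), each with a limma adjusted p of 0.494. Col6a2, Col15a1, Lama4, Lamb1, Lamc1, Adamts1, Adamts5, Mmp9, Mmp11 and Itga5, all from a list of adipose and mammary matrix genes, had no tested site with an unadjusted p under 0.05 in any comparison.

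The 2 directions differed in where the sites lie, and the difference in islands came through 1 gene, Adamtsl5. Without DIO-HFD replicate 1, the 169 sites with an adjusted p under 0.05 that were higher in DIO-VSG had a median of 6 CpGs and 57.7% GC in the 201 bases around them, and 5 (2.96%) were in CpG islands. The 47 lower sites had a median of 8 CpGs and 63.7% GC, and 20 (42.6%) were in islands. Of the 259 sites not called, 44 (17%) were in islands, with a median of 7 CpGs and 58.7% GC. The higher sites included 25 with the promoter flag and the lower sites 0. Island runs with lower sites were found only in Adamtsl5. The runs with lower sites in Mmp17, Itga3, Lamb3 and Col12a1 held 0 island sites. Since 24 of the 47 lower sites are in Adamtsl5, these shares are a description of few loci and were not tested.

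Adipose and mammary matrix genes were looked at as a list of 33 symbols, of which 23 had sites. The list also holds genes of leukocytes, such as Itgb2 and Mmp9. Of their 125 tested sites 41 were higher and 0 lower in DIO-VSG than DIO-HFD at an unadjusted p under 0.05, 32.8% and 0% beside 20.2% and 4.85% of all sites, and 0 passed the adjusted p. After centring 20 were higher and 6 lower, 16% and 4.8% beside 8.64% and 11.4% of all sites, and the median difference in M fell from 0.66 to 0.18. The mean level of the listed genes was 68.4%, 50.6%, 52.7% and 52.2% in DIO-HFD mice and 64.6% to 65.7% in DIO-VSG mice. Of the 41 higher sites Lama5 held 12 and Col6a1 8. The list was drawn up with earlier results of these data known, so its shares are a description and were not tested. Among 70 other matrix and adhesion genes that the naming rule does not match, 41 had sites. Of their 350 tested sites 129 were higher and 5 lower in DIO-VSG against DIO-HFD at an unadjusted p under 0.05. These are 36.9% and 1.43%, beside 20.2% and 4.85% of all sites. In DIO-LFD 59 were higher and 4 lower (all sites 7.92% and 2.16%), and in CON-LFD 36 and 1 (all sites 6.00% and 1.76%). None passed the adjusted p. After centring 62 were higher and 20 lower in DIO-VSG against DIO-HFD, 17.7% and 5.71% beside 8.64% and 11.4% of all sites.

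Of that list Hspg2, which encodes perlecan, held 54 of the 129 higher sites among its 74 tested sites. Its mean was 68.7%, 67.4% and 57.4% in CON-LFD mice, 72.8%, 40.5%, 43.8% and 42.0% in DIO-HFD mice, 75.7%, 57.1% and 64.3% in DIO-LFD mice, and 71.3%, 70.2%, 69.2% and 70.4% in DIO-VSG mice. The order of the mice is that seen in Col1a1 and Lama5. Ltbp3, a TGF-beta binding protein of microfibrils, had 22 higher of 50. Parvg, an integrin-linked adaptor of blood cells, had 4 of the 5 lower sites, with 43.4%, 75.6%, 70.2% and 70.3% in DIO-HFD and 43.7%, 46.5%, 53.4% and 45.9% in DIO-VSG mice. These genes were named after their values were seen.

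Markers of 4 kinds of cells that fat can hold were read at all their sites and at their promoter sites, and the lists did not move alike. At the 47 sites of fibroblast and endothelial markers (5 of 7 genes) DIO-HFD mice had 61.8%, 49.3%, 49.2% and 49.1%, and the other groups 59.0% ± 2.40 (CON-LFD), 59.0% ± 3.88 (DIO-LFD) and 60.8% ± 0.719 (DIO-VSG). At their 13 promoter sites, in Pdgfra and Pdgfrb, DIO-HFD mice had 47.0%, 41.0%, 39.3% and 41.4%, beside 43.0% to 44.8% in CON-LFD, 41.1% to 49.3% in DIO-LFD and 45.1% to 48.7% in DIO-VSG mice, so the low DIO-HFD mice overlapped DIO-LFD there. Leukocyte markers went both ways. Their 30 sites (6 of 12 genes) had 66.2%, 55.2%, 56.3% and 58.5% in DIO-HFD mice, beside 56.4% to 64.1% in CON-LFD, 59.3% to 65.2% in DIO-LFD and 60.4% to 61.6% in DIO-VSG mice. At their 9 promoter sites (Ikzf1, Lat and Zap70) the mean was 43.7%, 48.5% and 56.3% in CON-LFD mice, 43.7%, 64.8%, 70.7% and 69.2% in DIO-HFD mice, 40.7%, 61.4% and 50.7% in DIO-LFD mice, and 39.1%, 40.2%, 42.4% and 42.6% in DIO-VSG mice. DIO-HFD replicates 2 to 4 were thus the highest mice at the promoter sites and, over all sites, among the lower ones. At the adipocyte and epithelial markers these mice overlapped the DIO-VSG mice. The 6 adipocyte marker sites (3 of 8 genes) had 65.0%, 65.8%, 62.4% and 65.8% in DIO-HFD and 63.7% to 68.3% in DIO-VSG mice, and the 3 promoter sites among them (Cebpa and Pparg) 40.8%, 42.5%, 41.4% and 40.6% and 39.4% to 47.3%. The 14 epithelial marker sites (6 of 8 genes) had 63.4%, 65.1%, 65.9% and 61.4% in DIO-HFD and 62.1% to 64.7% in DIO-VSG mice, and the 3 promoter sites among them 45.9%, 45.6%, 49.4% and 45.6% and 44.0% to 47.6%. At the adipocyte promoter sites all DIO-HFD mice were above CON-LFD (32.5% to 40.3%) and, narrowly, above DIO-LFD mice (36.3% to 40.60%). At the 14 epithelial sites they were above CON-LFD (58.2% to 61.2%) and overlapped DIO-LFD mice (59.7% to 64.0%). At the 6 adipocyte sites and the epithelial promoter sites they overlapped both groups. Adipoq had no promoter site, so the labelled tissue could be checked only at these marker genes. The part of cell type shares in the differences was not tested.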

How the data were processed

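Genomic DNA of the mammary fat pads was sequenced by RRBS with MspI fragments of 40 to 170 bp. The authors used Bismark for alignment to mm10 and methylKit for calls, removed 2 mice for quality and deposited the level of each mouse at each site as a fraction from 0 to 1, without read counts, so that depth is unknown and no coverage minimum could be tried. The deposited table has 0 missing levels, and 10151 of its sites have an SD under 0.05 although the methods name such a filter. Groups came from the sample labels.

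M values were fitted with limma 3.58.1 in R 4.3.3 (4 groups, 1 model, no covariate), with Benjamini-Hochberg adjustment over 65610 sites and a threshold of 0.05. On simulated data with 200 of the 65610 sites changed by 4 in M, 152 were recovered with 5 false calls in DIO-VSG against DIO-HFD, and 145 with 11 in DIO-VSG against DIO-LFD. That change exceeds every difference in M given above, and noise was drawn for each site separately, without a mouse that stands apart. These counts therefore do not tell how many differences of the sizes seen here would be found. Sequences came from GRCm38 by samtools 1.23.1 and gene models from GENCODE vM21. Tables and figures were made with Python 3.11.15, pandas 2.3.3 and Matplotlib 3.10.9.

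Sites were named by a rule: per comparison the sites of the 5 member genes with the smallest p, in each of 9 gene groups the gene with the most sites, and a list of adipose and mammary matrix genes. Members, lists and rule were chosen with earlier results of these data known. The runs, Itga3, Lamb3, Adamts7, Adamtsl2, the second Col11a2 site and the genes of the other matrix list were picked with their values in view. The result of 1 locus that the rule names is not reported here, and its single site was left out of the search for outlying mice. Leaving out each mouse in turn was 1 alternative. The others were the offset (0.1), testing the level itself, trend and robust options of eBayes, fitting 2 groups at a time, centring, other SD filters, means per gene and region, and a block for the replicate number.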

Additional observations from a re-analysis of the deposited data

Results flagged for a closer look

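In each group of 4 mice the highest and lowest levels of the gene groups and of the named sites were compared with their neighbours, and 10 of 102 such sets of values held a mouse whose gap to the nearest other, as a share of the range, was above Dixon's critical value for 4 values. Chance alone gives about 1 in 20, and neighbouring sites and sums over them are not independent.

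DIO-HFD replicate 1 stood apart in 7 of the 10. Its mean over all tested member sites was 62.5% against 52.5%, 53.7% and 53.1% in the other DIO-HFD mice. In the fibrillar collagens it was 72.1% against 58.8%, 57.7% and 59.7%, in the basement membrane and network collagens 69.9% against 53.3%, 55.0% and 55.6%, and in the Adamts proteases 70.8% against 60.9%, 59.9% and 60.0%. Among single sites it had 26.9% at chr2:180227394 of Lama5 (others 4.08%, 6.12% and 6.06%) and 51.2% at chr14:54434200 of Mmp14 (others 26.7%, 27.7% and 29.1%). At chr5:129586611 of Mmp17 it was the low one, with 23.1% against 51.5%, 56.9% and 55.5%. At all of these it lay nearer to the DIO-VSG mean than the other DIO-HFD mice did.

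The other 3 were single values. DIO-HFD replicate 3 had 93.1% at chr15:11092813 of Adamts12, where the other DIO-HFD mice had 84.0%, 82.4% and 82.1%. DIO-VSG replicate 4 had 62.4% at the same Mmp14 site, where the others had 57.1%, 57.1% and 56.1%. DIO-VSG replicate 2 had 49.3% at chr8:95351356 of Mmp15, where the others had 54.4%, 55.4% and 54.4%.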

How the results depend on the processing

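With all mice, the count of member sites at an adjusted p under 0.05 was 0 in every comparison under each alternative but one: a fit of only the 2 groups gave 2 in DIO-VSG against DIO-HFD, beside 47 of all 65610 sites. At an unadjusted p under 0.05 the main fit gave 36, 46 and 148 sites in CON-LFD, DIO-LFD and DIO-VSG against DIO-HFD. In DIO-VSG against DIO-LFD it gave 16. In the same order, the fit of only the 2 groups gave 21, 13, 124 and 28. A minimum SD of 0.1 gave 9, 10, 46 and 2, and means per gene and region gave 5, 4, 32 and 4 of 94 units. The last 2 alternatives test fewer sites or units. Over the whole table the fit of only 2 groups gave 2726, 3070, 14059 and 3898 of 65610 sites in the same order. A minimum SD of 0.1 gave 1146, 1779, 5994 and 527 of 15066 sites, of which 103 are members. Means per gene and region gave 1148, 1345, 3766 and 696 of 14163 units.

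Leaving out each mouse gave adjusted counts of 0 to 70, 0 to 78, 0 to 216 and 0 to 1, the highest of the first 3 without DIO-HFD replicate 1, and unadjusted counts of 19 to 181, 20 to 202, 76 to 277 and 10 to 29. Groups of 3 are left with 2 mice then. Without DIO-HFD replicate 1, which gave the highest unadjusted counts, the whole table had 20299, 21387, 29443 and 4445 of 65610 sites. Of the named sites, 24 passed the adjusted p without DIO-HFD replicate 1, and 1 each without DIO-LFD replicate 1, without DIO-LFD replicate 3 and in the fit of only 2 groups, all of them Col12a1 in these 3 cases, and no difference in M reversed under any alternative run. Replicate numbers are not stated to pair the mice. Correlations of same-numbered mice ran from -0.08 to 0.20, over 0.1 in 4 of 19 pairs. Those of differently numbered mice ran from -0.29 to 0.19 and were seldom over 0.1, so these values do not settle it. With the number as a block the unadjusted counts were 36, 37, 162 and 15 and the adjusted counts 0. Without read counts, a level from few reads cannot be told from one from many.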

Other observations

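Member sites in CpG islands differed by whether they lay in an MspI site. The 34 island sites in CCGG had a median level of 52.1%, with 21 (61.8%) between 40% and 60%, whereas the 51 island sites outside CCGG had a median of 17.1%. Over all sites of the table the island medians were 50.6% in CCGG and 30.0% outside it, the same order as in the members. Its cause was not tested.

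A few CCGG sites held 1 or 2 mice far from the rest. At the promoter site of Mmp24 52 bp upstream of its start, DIO-VSG replicate 2 was at 100% and the other 13 mice at 39.7% to 52.0%, and 70 bp after the start the same mouse was at 9.09% and the others at 44.8% to 58.6%. Upstream of Lama5, CON-LFD replicate 1 was at 6.25% at chr2:180227338 and at 100% at chr2:180227688, and DIO-LFD replicate 2 at 0% and 90.9%, while the other mice were at 41.7% to 61.1% and 39.1% to 59.1%. At chr5:129586177 in Mmp17, CON-LFD replicate 1 was at 0% and DIO-LFD replicate 2 at 100%, with the others from 48.1% to 62.3%. These sites were picked after their values were seen and are counted among the tested sites.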
